A study of Mus musculus with 48 samples.

Results

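Cytosolic ribosomal proteins and the factors that drive translation were followed in mouse hippocampus and amygdala across 3 behavioural arms. Members were the probe sets that name a single gene in the platform annotation, with a symbol beginning with Rpl or Rps and a digit, or with Rplp, Eif or Eef. Symbols of the S6 kinases (Rps6k) and of pseudogenes (-ps) were left out. The rule took 83 genes of the 8251 that a probe set names alone, 34 ribosomal protein genes and 49 factor genes, on 114 of 12422 probe sets. For each gene the probe set with the highest mean in the tissue was kept.

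The data come from 48 Affymetrix arrays, each reading the labelled total RNA of a single sample. Hippocampus has 8 CS, 8 FC and 10 NH arrays, and amygdala has 6 CS, 6 FC and 10 NH arrays. The labels give the arms as these codes alone. Under a series title on associative and nonassociative learning they can be read as conditioned stimulus, fear conditioning and naive or home cage, but no label says so, and the codes are kept. No label used here gives the strain, age or sex of the mice, the session or the time of dissection. The number in each of the 22 amygdala titles begins with the digit of its batch, and in 8 of them the rest reads as 2 numbers of hippocampus arrays of the same arm (CS 21523 beside CS 15 and CS 23). The titles may therefore name pooled pairs of mice, some of which also gave hippocampus arrays, but no label states it. Each array was counted as 1 sample, and every p-value measures the spread between arrays, part of which may be technical.

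The ribosome is built from ribosomal RNA and a fixed set of ribosomal proteins, shared between a small subunit, which reads the messenger RNA, and a large subunit, which joins amino acids. Initiation factors (eIF) bring the first transfer RNA, the messenger RNA and the subunits together, and elongation factors (eEF) drive each later step. Most ribosomal protein messenger RNAs, and those of several elongation factors, begin with a run of pyrimidines called the terminal oligopyrimidine (TOP) tract, through which mTOR signalling controls their translation. In neurons, new protein synthesis after training is known to be needed for lasting memory. That control acts largely on translation and on phosphorylation of the factors, which transcript levels do not measure.

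The first bases around the annotated transcription start are shown for 5 genes that recur in the comparisons, because the TOP tract is the sequence feature that this gene family is known for. RefSeq starts of build GRCm38.p6 were found for 22 of the 26 ribosomal protein genes and 33 of the 39 factor genes that could be tested. Each window runs 5′ to 3′ on the gene's strand from 30 bases before the start to 20 bases of the transcript, and capitals mark its longest unbroken run of C and T between 10 bases before the start and the end. Rplp0 lies at chr5:115559437-115559486 on the plus strand, Rpl13a at chr7:45128726-45128775 on the minus strand, Rps18 at chr17:33955646-33955695 on the minus strand, Eif3k at chr7:28981869-28981918 on the minus strand and Eif2b5 at chr16:20498787-20498836 on the plus strand.
Rplp0: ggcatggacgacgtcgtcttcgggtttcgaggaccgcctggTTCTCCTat
Rpl13a: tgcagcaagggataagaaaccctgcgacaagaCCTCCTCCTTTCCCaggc
Rps18: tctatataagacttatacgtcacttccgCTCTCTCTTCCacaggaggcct
Eif3k: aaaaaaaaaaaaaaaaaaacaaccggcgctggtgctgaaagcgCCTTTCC
Eif2b5: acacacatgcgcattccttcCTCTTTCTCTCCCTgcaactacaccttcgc

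Within the stretch searched, the capitals cover 14 bases in Rpl13a and in Eif2b5, 11 in Rps18 and 7 in Rplp0 and Eif3k. They begin at base 3 of the annotated transcript in Rpl13a, 12 in Rplp0 and 14 in Eif3k. A TOP tract begins the messenger RNA, so these 3 runs are not such tracts at the annotated start. In Rps18 the capitals begin 2 bases before the start and in Eif2b5 10 bases before it, and both runs span it. The run of Eif3k stops at the edge of the window, and that of Eif2b5 goes on upstream of the stretch that was searched, so neither length is complete. Tracts were searched as 5 words: CTTTC was the first, CTTTT another, then CCTTT, with CTTCC beside it and finally CTCTT. The words were sought on the gene's strand, whose letters match the RNA, between 10 bases before and 20 bases after a start. At least 1 was held by 40.91% of ribosomal protein genes, 24.24% of the factor genes and 18.49% of all 27025 genes in the table. On the opposite strand the shares were 27.27%, 24.24% and 19.3%. Some genes have several starts, and per start the shares on the gene's strand were 29.03%, 21.05% and 15.99%. The word CCGGAAG on either strand of the whole promoter window of the table was held by 36.36% of both kinds of member and by 9.93% of all genes. Read on the other strand, CTTCC is the end of CCGGAAG, so the searches overlap. A match is a description of the letters, not of a bound site.

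Of the 83 members, 65 lay above the 40% dimmest probe sets in both tissues and could be tested, 26 ribosomal protein genes and 39 factor genes. The 18 that lay below in both tissues were Rpl32, Rpl38, Rpl39, Rpl39l, Rpl7l1, Rps14, Rps15 and Rps20 among ribosomal proteins and Eef1g, Eif2ak2, Eif2ak3, Eif2ak4, Eif2s2, Eif2s3y, Eif4e, Eif4ebp1, Eif4enif1 and Eif5a among factors. No probe set names Rplp1, Rplp2, Rpl3, Rps6, Rps27a, Eif2s1 or Eif4g1 by itself. Another 39 probe sets name a ribosomal protein gene beside other genes, mostly its processed copies, and they were kept apart. Of the tested members 53 are on plain probe sets and 12 on probe sets whose suffix marks shared or less specific probes. Near-identical copies elsewhere in the genome could add signal to any of them.

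Differences between arms are on the log2 scale and come from limma fits that hold the processing batch constant. Their p-values carry a Benjamini-Hochberg adjustment over 7453 probe sets in each tissue, and an adjusted p under 0.05 is a call. A log2 difference of 0.10 is a small change: the 1.10-fold difference of Eif3k in amygdala (CS minus NH) is 0.14 on this scale. A batch in each tissue held only NH arrays, so differences from NH rest on 4 NH arrays in each tissue, and both comparisons with NH share them. FC minus CS shares its arrays with those comparisons too. In bulk tissue, fewer cells of a type and less RNA per cell cannot be told apart. The tissue labels were checked with 6 markers of hippocampal neurons, and for 4 of them every hippocampus array ranked the gene higher than any amygdala array did.

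Several arrays stood apart. The hippocampus array NH 100 of batch 4 had the highest signal of its tissue at the 3′ control probe set for 18S ribosomal RNA (9.20, against a median of 7.64 over 26 arrays). It also had the largest 3′ minus 5′ differences in its tissue at Gapdh (0.48, median 0.09) and Actb (1.17, median 0.76). The amygdala array CS 23139 of batch 2 had the largest Actb 3′ minus 5′ difference of its tissue (1.25, median 1.00) and high 18S signal (8.27, median 6.70). CS 21523 of the same batch had the highest 18S signal of the tissue (8.58) and NH 29798 the third (8.09), while the other 4 CS arrays read between 6.52 and 6.70. NH 111 of hippocampus lay low in ribosomal protein transcripts, and CS 23139 and CS 21523 had the highest array medians of amygdala (0.25 and 0.12 above the tissue mean). Values without these arrays are given for the members' medians within a tissue and for the main genes they move.

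In amygdala, most ribosomal protein transcripts lay a little higher in CS than in NH, and none passed. The median log2 difference of the 26 genes was 0.10, against 0.01 for all probe sets. Of the 26, 22 were higher (53.8% of all probe sets were) and 4 lower (46.2%), and the differences ran from -0.08 to 0.21. By limma 0 were called (0.0134% of all probe sets were). An unadjusted p below 0.05 was reached by 3, Rplp0, Rpl13a and Rpl10a, against 3.92% of all probe sets. The 12 large subunit genes had a median of 0.12 with 11 higher, and the 14 small subunit genes a median of 0.08 with 11 higher. Within batches the median was 0.14 in batch 2, with 24 of 26 genes higher, and 0.04 in batch 3, with 19 higher. Batch 3 held 1 NH array. Leaving out CS 23139 lowered the median from 0.10 to 0.05, and leaving out CS 21523 as well, a setting added after the data were seen, lowered it to 0.01, close to that of all probe sets. The highest value with any 1 array left out was 0.12.

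Rplp0 encodes the stalk protein of the large subunit, where elongation factors bind. In amygdala its log2 intensity ran from 9.37 to 9.76 in CS (median 9.52, n = 6), from 9.43 to 9.67 in FC (median 9.52, n = 6) and from 9.28 to 9.51 in NH (median 9.44, n = 10). The arms overlapped over all batches, but within batches 2 and 3 every CS array lay above every NH array. In batch 2 the CS arrays read 9.51, 9.72 and 9.76, and the NH arrays 9.39, 9.44 and 9.45. Arms were separated in this way, with CS higher, for 2.31% of all probe sets and for 5 members, Rplp0, Rps18, Eif2b5, Eif3k and Eif4g2. With CS lower they were for 0.993% of probe sets and for 0 members. The difference was 0.17 ± 0.0656 (SE), or 1.12-fold, with a 95% interval from 0.03 to 0.30 (limma, adjusted p = 0.942). It was 0.13 without CS 23139, 0.06 without CS 21523 as well, 0.24 in batch 2 and 0.08 in batch 3.

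Rps18, a protein of the small subunit head, had amygdala levels from 10.11 to 10.50 in CS (median 10.32) and from 10.09 to 10.52 in NH (median 10.27). In batches 2 and 3 every CS array again lay above every NH array, and the difference was 0.14 ± 0.0756 (limma, adjusted p = 0.942), or 0.09 without CS 23139 and CS 21523. Rpl10a, a large subunit protein, ran from 8.85 to 9.53 in CS (median 9.01) and from 8.82 to 9.32 in NH (median 9.03), so the arms overlapped fully. Its difference of 0.21 ± 0.10 (limma, adjusted p = 0.942) leaned on a single array: 9.53 was CS 23139, and without it the difference was 0.11. It was 0.04 without CS 21523 as well, and 0.28 without NH 29798. A second probe set of Rpl10a differed by 0.14. The lower genes with the smallest p were Rpl35a (-0.08 ± 0.0877), Rps29 (-0.04 ± 0.0777) and Rps13 (-0.04 ± 0.0819), all with intervals that included 0.

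Rpl13a, a large subunit protein that is also known for silencing inflammatory messenger RNAs when phosphorylated, had amygdala levels from 6.43 to 6.91 in CS (median 6.57), from 6.51 to 6.81 in FC (median 6.62) and from 6.47 to 6.72 in NH (median 6.56). The difference of CS from NH was 0.15 ± 0.0606 with an interval from 0.03 to 0.28 (limma, adjusted p = 0.942). It was 0.22 in batch 2 and 0.03 in batch 3, and 0.10 without CS 23139 (0.11 without CS 21523 as well).

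**Figure D1:**
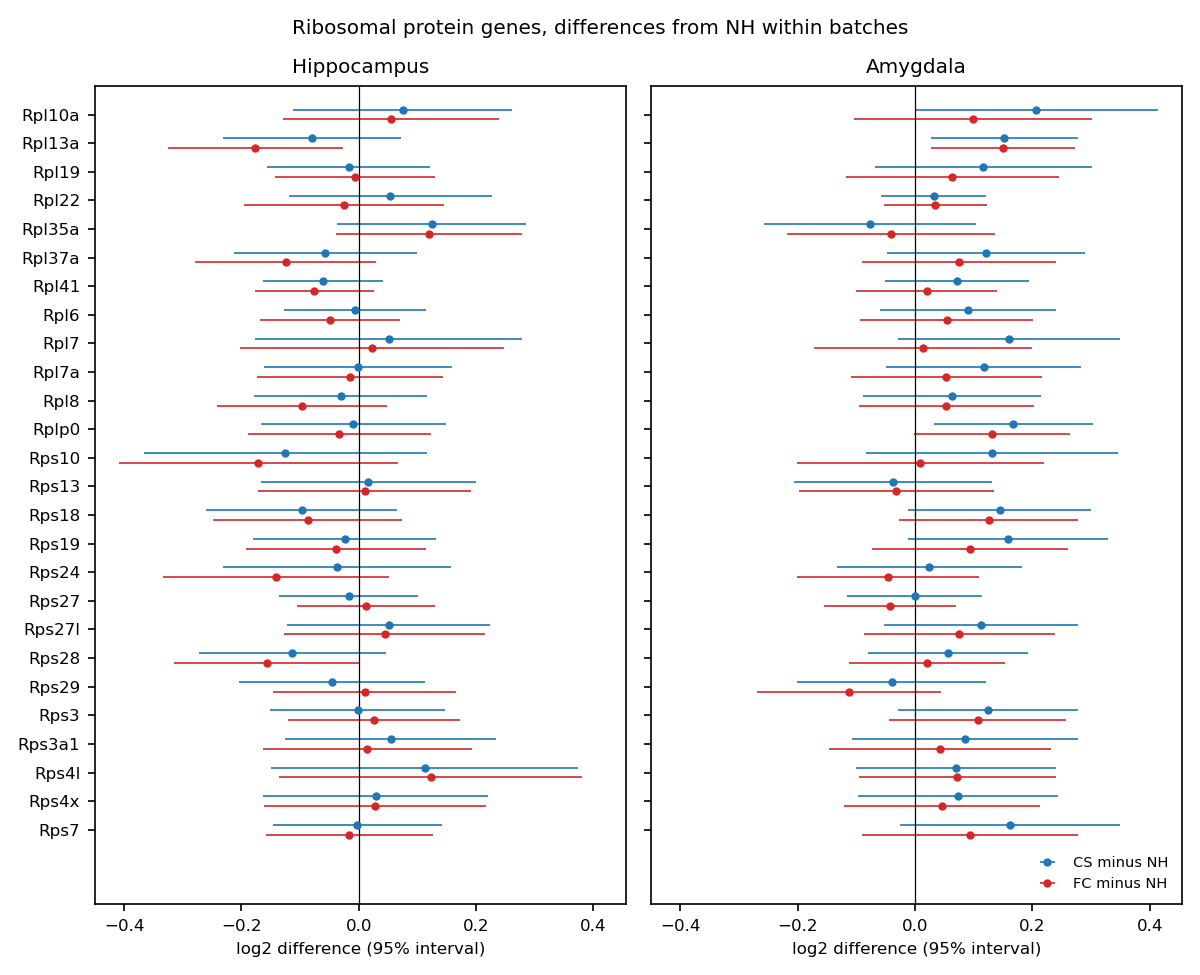
Log2 differences of CS (blue) and FC (red) from NH for the 26 ribosomal protein genes tested, with 95% intervals from limma, in hippocampus (left) and amygdala (right); large subunit genes stand above small subunit genes. In amygdala 22 of 26 blue points and 21 of 26 red points lie above 0, in hippocampus 9 and 11, and most intervals include 0.

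For translation factors the median difference in amygdala CS minus NH was 0.04 (0.03 without CS 23139 and CS 21523), with 33 of 39 higher, differences from -0.11 to 0.20, 0 called and 4 with an unadjusted p below 0.05. The 30 initiation factor genes had a median of 0.04 with 25 higher, and the 7 elongation genes a median of 0.02 with 6 higher. All 5 tested genes of eIF2, which carries the initiator transfer RNA, and of its exchange factor eIF2B were higher, with a median of 0.05. They were Eif2s3x of eIF2 and Eif2b1, Eif2b2, Eif2b4 and Eif2b5 of eIF2B. Of the 10 tested subunit genes of eIF3, the scaffold that joins the small subunit to the messenger RNA, 8 were higher (median 0.03). The 7 tested eIF4 factors, which bind and unwind the cap end of the messenger RNA, had a median of 0.00 with 4 higher. Within batches the factor median was 0.05 in batch 2 (29 higher) and 0.05 in batch 3 (25 higher).

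Eif3k, which encodes a small peripheral subunit of eIF3, had the smallest p of any member in amygdala. Its levels ran from 8.80 to 9.07 in CS (median 8.92), from 8.82 to 9.06 in FC (median 8.96) and from 8.66 to 8.99 in NH (median 8.84). In batch 2 the NH arrays read 8.66, 8.70 and 8.77, the CS arrays 8.80, 8.91 and 8.91 and the FC arrays 8.82, 8.88, 8.96 and 8.97. In batch 3 the NH array read 8.92, the CS arrays 8.94, 9.01 and 9.07 and the FC arrays 9.05 and 9.06. Every CS and FC array of these batches therefore lay above every NH array of its batch, while NH arrays of batch 1, between 8.82 and 8.99, lay among them. The difference from NH was 0.14 ± 0.0491 in CS (limma, adjusted p = 0.942) and 0.18 ± 0.0482 in FC, with a 95% interval from 0.08 to 0.28 (limma, adjusted p = 0.461). Leaving out any 1 array kept the FC difference between 0.16 and 0.20, and the CS difference was 0.14 without CS 23139 and CS 21523. Eif3k also differed between amygdala batches (adjusted p = 0.00733, range of batch terms 0.15).

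Eif4g2 encodes a relative of the eIF4G scaffold that lacks the cap-binding part and serves cap-independent initiation. In amygdala it ran from 5.45 to 5.90 in CS (median 5.58), from 5.53 to 5.76 in FC (median 5.62) and from 5.35 to 5.68 in NH (median 5.57). CS lay above NH in both shared batches, and FC overlapped NH in batch 2. The difference from NH was 0.18 ± 0.0625 in CS (limma, adjusted p = 0.942) and 0.16 ± 0.0613 in FC (limma, adjusted p = 0.894). The CS difference was 0.12 without CS 23139 and 0.14 without CS 21523 as well.

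Eif2b5 encodes the catalytic subunit of eIF2B, the step that the integrated stress response blocks. Its amygdala levels ran from 6.51 to 6.75 in CS (median 6.56), from 6.36 to 6.66 in FC (median 6.49) and from 6.18 to 6.51 in NH (median 6.40). CS lay above NH in both shared batches, by 0.24 and 0.16, and the difference was 0.20 ± 0.0701 (limma, adjusted p = 0.942), or 0.12 without CS 23139 and CS 21523. A second probe set of Eif2b5 differed by 0.03, so the probe sets of this gene did not give the same size. Eif3l, another eIF3 subunit, differed by 0.13 ± 0.0591 (0.04 without CS 23139 and CS 21523), and its second, dim probe set by -0.05. The lower factors with the smallest p were the cap-binding protein Eif4e2 (-0.11 ± 0.0721), the eIF3 subunit Eif3f (-0.07 ± 0.0810) and the helicase Eif4a1 (-0.03 ± 0.0587). For Eif4e2 another probe set, past the brightness limit, differed by 0.06, the opposite direction.

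**Figure D2:**
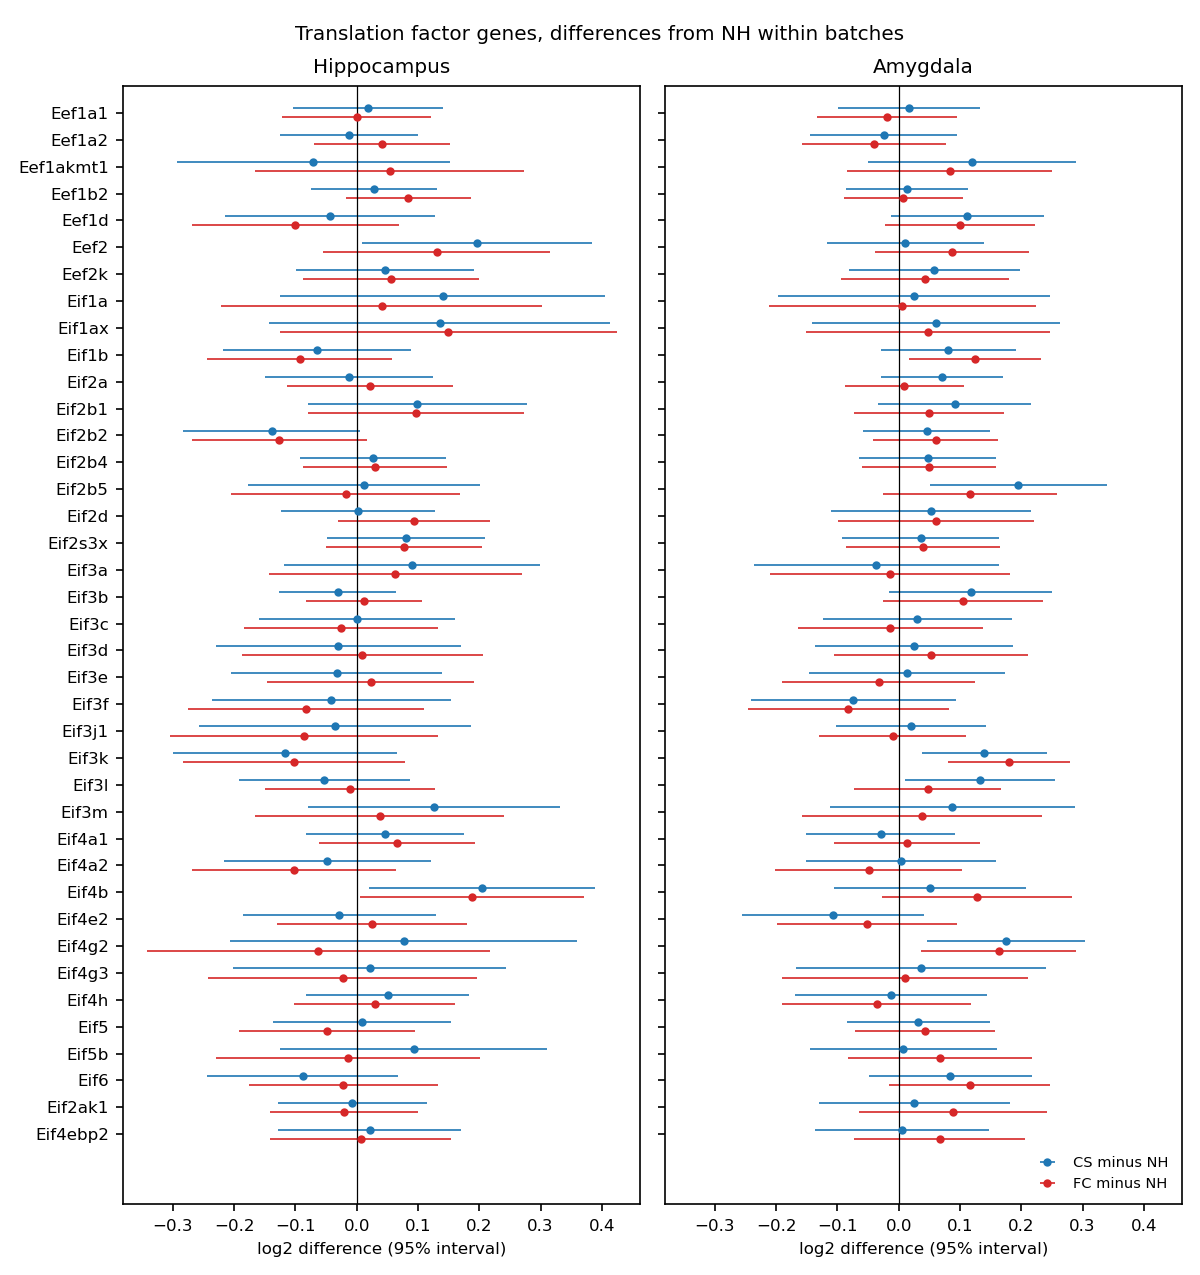
Log2 differences of CS (blue) and FC (red) from NH for the 39 translation factor genes tested, with 95% intervals from limma, in hippocampus (left) and amygdala (right); elongation genes are at the top, then initiation genes, then the kinase Eif2ak1 and the binder Eif4ebp2. Eif3k, Eif4g2 and Eif2b5 in amygdala and Eif4b in hippocampus are among the few with an interval off 0.

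In amygdala FC minus NH, ribosomal protein genes had a median difference of 0.05 (0.01 for all probe sets), with 21 of 26 higher (55.2% of all probe sets), 5 lower (44.8%) and a range from -0.11 to 0.15. None was called, where 0.0939% of all probe sets were, and only Rpl13a had an unadjusted p below 0.05 (5.15% of all probe sets did). When arrays were weighted by their agreement with the fit, 4 ribosomal protein genes were called, Rpl13a, Rplp0 and Rps18 higher and Rps29 lower. The same weights raised the calls over all probe sets from 7 to 911 of 7453. The largest weights went to FC 3144146 (4.08) and NH 3142153 (2.94), the only NH array of batch 3. The median was 0.03 in batch 2, with 18 higher, and 0.09 in batch 3, with 22 higher. Leaving out single arrays moved it between 0.03 (without FC 2103113) and 0.09 (without FC 21927).

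Rpl13a differed between FC and NH by 0.15 ± 0.0596 (limma, adjusted p = 0.894), by 0.17 in batch 2 and 0.08 in batch 3. Every FC array of these batches lay above every NH array of its batch, as for 2.03% of all probe sets; FC lay wholly below NH for 0.456% of probe sets and for 0 members. In batch 2 the FC arrays read 6.60, 6.65, 6.69 and 6.81 and the NH arrays 6.47, 6.53 and 6.55. Rplp0 differed by 0.13 ± 0.0644 and Rps18 by 0.13 ± 0.0742, and their FC and NH arrays overlapped in batch 2. Among small subunit genes, Rps29 (-0.11 ± 0.0763), Rps24 (-0.05 ± 0.0750) and Rps27 (-0.04 ± 0.0546) were the lower genes with the smallest p. Rps3, a small subunit protein that is also a DNA repair nuclease, differed by 0.11 ± 0.0728.

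Factors in amygdala FC minus NH had a median of 0.05, with 29 of 39 higher, 0 called and 3 at an unadjusted p below 0.05, Eif3k, Eif4g2 and Eif1b. Eif1b, which encodes a close relative of the start codon selection factor eIF1, differed by 0.12 ± 0.0524. Array weights called 5 of the 39, Eif3k, Eif4g2, Eif2b5, Eif1b and Eif4b, all higher. With the same weights 911 of all 7453 probe sets were called. Besides Eif3k, FC lay above NH in both shared batches for the eIF2B subunit Eif2b2 (0.06 ± 0.0492) and for Eif3b (0.11), the eIF3 core subunit. A second probe set of Eif3b, below the brightness limit, differed by -0.21, the opposite direction. The lower factors with the smallest p were Eif3f (-0.08 ± 0.0795), Eif4e2 (-0.05 ± 0.0708) and the neuronal elongation factor Eef1a2 (-0.04 ± 0.0571). The other probe set of Eif4e2, past the brightness limit, again went the opposite way (0.06).

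Between FC and CS in amygdala, ribosomal protein genes were mostly lower in FC. The median was -0.04, with 22 of 26 lower (48.2% of all probe sets were), 4 higher (51.8%) and a range from -0.15 to 0.04. None was called or reached an unadjusted p of 0.05 (0% and 1.23% of all probe sets did), and in neither direction were the arms of any member separated in both batches (0.0537% of probe sets with FC higher and 0.0268% with FC lower). The direction was not shared by the batches: in batch 2 the median was -0.10 with 25 of 26 lower, and in batch 3 it was 0.05 with 21 of 26 higher. Without CS 23139 the median was 0.00, and without CS 21523 as well it was 0.03. The lower genes with the smallest p were Rpl7 (-0.15 ± 0.0812), Rps10 (-0.12 ± 0.0921) and Rpl10a (-0.11 ± 0.0889), and without CS 23139 they were at -0.08, -0.05 and -0.02. Rpl35a (0.04 ± 0.0777, -0.03 without CS 23139), Rpl22 (0.00) and Rps13 (0.01, also -0.03 without CS 23139) were the higher genes with the smallest p.

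Factors in amygdala FC minus CS had a median of -0.01 with 17 of 39 higher and none at an unadjusted p below 0.05. The translocation factor Eef2 (0.08 ± 0.0549), the helicase cofactor Eif4b (0.08 ± 0.0676) and the eIF4E inhibitor Eif4ebp2 (0.06 ± 0.0609) were the higher ones with the smallest p. Eif3l (-0.09 ± 0.0524), Eif2a (-0.06 ± 0.0427) and Eif2b5 (-0.08 ± 0.0622) were the lower ones, at -0.04, -0.07 and -0.03 without CS 23139. Other probe sets past the brightness limit differed by 0.02 for Eif2b5, -0.02 for Eif4ebp2 and 0.01 for Eif4b. In batch 3 alone the factor median was 0.05, and in batch 2 it was -0.03.

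**Figure D3:**
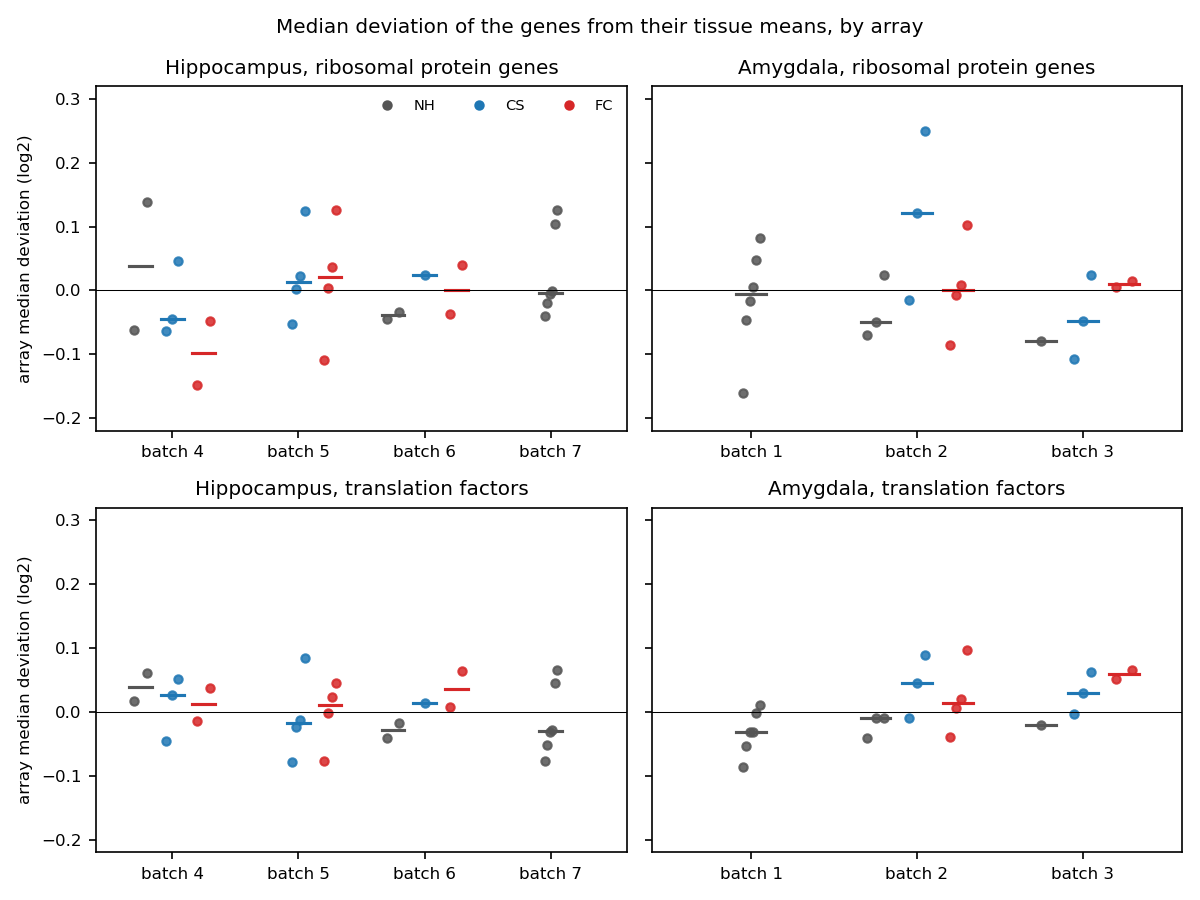
Median over the 26 ribosomal protein genes (top) and the 39 factor genes (bottom) of each gene's log2 deviation from its mean in the tissue, 1 point per array, by processing batch and arm; lines mark the median of an arm in a batch. In amygdala batch 2 the highest ribosomal point, at 0.25, is CS 23139, and the NH arrays of batch 1 alone span -0.16 to 0.08.

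The amygdala control probe sets for 18S ribosomal RNA differed between arms as well, and their part in the result was not tested. Their log2 signal was higher in CS than NH by 0.28, 0.43 and 0.37 at the 3′, middle and 5′ probe sets, and lower in FC than CS by 0.58, 0.87 and 0.71. The residual SD between arrays was 0.50 to 0.73, so these differences are near the spread of single arrays, which is not their standard error. The 3′ minus 5′ differences moved by 0.04 at Gapdh and 0.08 at Actb between CS and NH. Marker lists of cell types were read beside the members, and none of their genes was called. In CS minus NH, 5 of 6 neuron markers were higher (median 0.11), 6 of 7 microglia markers (median 0.08) and 3 of 6 astrocyte markers (median -0.00). The higher gene with the smallest p was the neurofilament gene Nefm among neuron markers (log2 difference 0.19) and C1qb among microglia markers (log2 difference 0.15). The arms overlapped in the summed intensity of these marker lists. The summed intensity of the neuron markers ran from 3725 to 4615 in CS (median 3995) and from 3682 to 4641 in NH (median 4238), that of the microglia markers from 1213 to 1393 and from 1145 to 1319. In FC minus NH, 6 of 6 neuron markers (median 0.07), 6 of 7 microglia markers (median 0.10) and 4 of 5 oligodendrocyte markers (median 0.16) were higher. No marker list was at 0 in any arm, and the part of cell composition was not tested.

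In hippocampus the ribosomal protein genes centred on 0 in CS minus NH. The median difference was -0.01 (0.00 for all probe sets), with 17 of 26 lower (49.5% of all probe sets), 9 higher (50.5%) and a range from -0.13 to 0.12. None was called, where 0.0134% of all probe sets were, and none reached an unadjusted p of 0.05, where 1.45% did. CS and NH were separated in both shared batches for 0 members in either direction (1.6% of probe sets with CS higher and 1.42% with CS lower). The large and small subunit genes both had medians of -0.01. Batch 4 gave -0.03 with 7 higher and batch 6, with 1 CS array, 0.03 with 18 higher. Leaving out NH 100 turned the sign, to a median of 0.06, while without NH 111 it stayed negative at -0.04.

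Among ribosomal protein genes in hippocampus CS minus NH, Rpl35a (0.12 ± 0.0781), Rps4l (0.11 ± 0.127) and Rpl10a (0.07 ± 0.0908) were the higher ones with the smallest p. Without NH 100 they were at 0.05, 0.15 and 0.17, and without NH 111 at 0.16, 0.14 and -0.01. Rps28, a small protein at the exit of the messenger RNA channel, ran from 11.84 to 12.16 in CS (median 12.00), from 11.76 to 12.10 in FC (median 11.95) and from 11.80 to 12.38 in NH (median 11.87). The arms overlapped, and NH held both the lowest median and the highest array, which was NH 100. Rps28 differed by -0.11 ± 0.0776 between CS and NH (limma, adjusted p = 0.9999), by 0.03 without NH 100 and by -0.20 without NH 111. Its other probe sets differed by -0.05 and 0.05. Rps18 (-0.10 ± 0.0791) and Rpl41 (-0.06 ± 0.0499) were the other lower ones, and Rps18 was at 0.02 without NH 100 and -0.15 without NH 111.

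The leading factors in hippocampus CS minus NH were Eif4b and Eef2, and NH 100 and NH 111 moved them in opposite directions. Factors had a median of 0.01 with 22 of 39 higher, 0 called and 2 at an unadjusted p below 0.05. Eif4b, which stimulates the helicase of the cap complex and is a target of S6 kinase, ran from 8.81 to 9.14 in CS (median 8.96), from 8.74 to 9.12 in FC (median 9.03) and from 8.51 to 9.07 in NH (median 8.93). The lowest, 8.51, was NH 100. The difference was 0.20 ± 0.0898 in CS (limma, adjusted p = 0.9999) and 0.19 ± 0.0887 in FC, and without NH 100 they were 0.09 and 0.08, without NH 111 0.33 and 0.30. The other 3 probe sets of Eif4b differed by -0.02, -0.03 and 0.12 in CS minus NH.

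Eef2 moves the ribosome along the messenger RNA and is switched off by the calcium-dependent kinase that Eef2k encodes. In hippocampus it ran from 9.76 to 10.36 in CS (median 10.07), from 9.70 to 10.26 in FC (median 10.00) and from 9.78 to 10.29 in NH (median 10.03), with full overlap. Batches differed by up to 0.38 for this gene (limma, adjusted p = 0.00424). Within batches the CS difference was 0.20 ± 0.0914 (limma, adjusted p = 0.9999), 0.07 without NH 100 and 0.29 without NH 111. Eef2k itself differed by 0.05 ± 0.0709. The lower factors with the smallest p were Eif2b2 (-0.14 ± 0.0703), Eif3k (-0.12 ± 0.0892) and the subunit-joining inhibitor Eif6 (-0.09 ± 0.0760). Without NH 100 they were at -0.08, 0.01 and -0.02, and without NH 111 at -0.10, -0.17 and -0.12.

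In hippocampus FC minus NH, ribosomal protein genes had a median of -0.02 with 15 of 26 lower (50.3% of all probe sets), 11 higher (49.7%), 0 called (0.0134%) and 1 at an unadjusted p below 0.05 (2.27%). The 12 large subunit genes had a median of -0.03 with 9 lower, and the 14 small subunit genes 0.01 with 6 lower. The median was -0.13 in batch 4 (7 higher) and 0.04 in batch 6 (17 higher). It was 0.03 without NH 100 and -0.06 without NH 111.

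Rpl13a was the gene with an unadjusted p below 0.05. Its hippocampal levels ran from 7.10 to 7.42 in CS (median 7.33), from 6.93 to 7.36 in FC (median 7.22) and from 7.18 to 7.57 in NH (median 7.35). In batch 4 the FC arrays read 6.93 and 7.18 and the NH arrays 7.23 and 7.45, and in batch 6 the FC arrays read 7.14 and 7.24 and the NH arrays 7.28 and 7.30. Every FC array of these batches thus lay below every NH array of its batch, as for 1.19% of all probe sets, while FC arrays of batch 5 reached 7.36. No member lay wholly above NH in this comparison, where 2.29% of all probe sets did. The difference was -0.18 ± 0.0727, with a 95% interval from -0.33 to -0.03 (limma, adjusted p = 0.9999). It was -0.11 without NH 100 and between -0.20 and -0.11 with any array left out. Rps28 (-0.16 ± 0.0766) and Rpl37a (-0.12 ± 0.0750) followed, at -0.02 and -0.04 without NH 100 and at -0.23 and -0.19 without NH 111. The higher genes were again Rpl35a (0.12), Rps4l (0.12) and Rpl10a (0.06).

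Factors in hippocampus FC minus NH had a median of 0.01 with 22 of 39 higher, 0 called and 1, Eif4b, at an unadjusted p below 0.05. Eef1b2, the exchange factor of eEF1A, differed by 0.08 ± 0.0497 and the initiation factor Eif2d by 0.09 ± 0.0603. Their other probe sets, below the brightness limit, differed by -0.07 for Eef1b2, the opposite direction, and by 0.09 for Eif2d. Eif2b2 (-0.13 ± 0.0695), Eif1b (-0.09 ± 0.0738) and the helicase Eif4a2 (-0.10 ± 0.0811) were the lower ones, at -0.07, -0.01 and -0.08 without NH 100. In batch 6 alone the factor median was 0.06, and in batch 4 it was -0.03.

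FC and CS were close in hippocampus, where 8 arrays of each arm and 3 shared batches give the smallest standard errors (medians of 0.06 for both kinds of gene). Ribosomal protein genes had a median of -0.02 with 20 of 26 lower (49.6% of all probe sets), 6 higher (50.4%), 0 called (0%) and 0 at an unadjusted p below 0.05 (0.765%). The largest differences were -0.10 for Rps24 and 0.06 for Rps29. Rpl13a differed by -0.10 ± 0.0554 and Rpl22 by -0.08 ± 0.0633. The median was -0.08 in batch 4, -0.01 in batch 5 and -0.00 in batch 6. Factors had a median of -0.01, with Eif2d (0.09 ± 0.0460), the eEF1A methyltransferase gene Eef1akmt1 (0.12 ± 0.0817) and Eef1b2 (0.06 ± 0.0379) higher and Eif4g2 (-0.14 ± 0.104), Eif5b (-0.11 ± 0.0801) and Eif3m (-0.09 ± 0.0754) lower. Other probe sets went the opposite way for Eif5b (0.03) and Rpl22 (0.03), both past the brightness limit, and for Eef1b2 (-0.05), below it. That of Eif2d, also below it, went the same way (0.07). The 95% interval lay wholly within 0.20 of 0 for 21 of the 26 ribosomal protein genes and 30 of the 39 factors. It did so for Rplp0 (-0.14 to 0.10) and Eif3k (-0.12 to 0.15), but not for Rpl13a (-0.21 to 0.02) or Eif4g2 (-0.35 to 0.07).

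**Figure D4:**
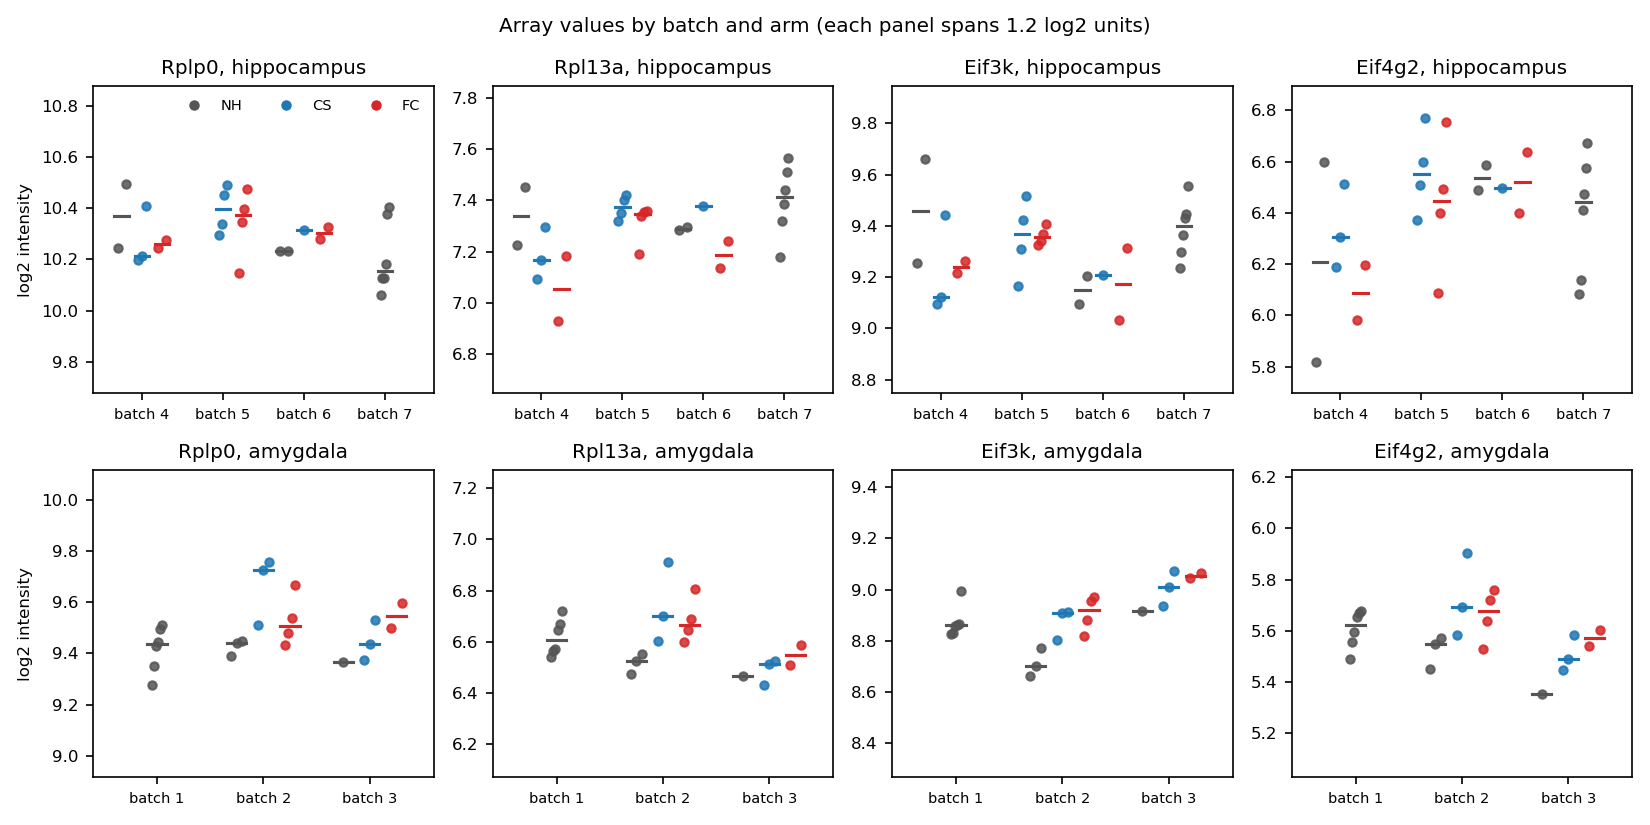
Log2 intensity of Rplp0, Rpl13a, Eif3k and Eif4g2 in every array of hippocampus (top) and amygdala (bottom), by processing batch and arm; lines mark medians and each panel spans the same number of log2 units. In amygdala Eif3k lies above the NH arrays of its batch in every CS and FC array, and hippocampal Rpl13a lies below them in every FC array of batches 4 and 6.

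Hippocampal 18S control signal was lower in CS than NH by 0.50, 0.48 and 0.47 at the 3′, middle and 5′ probe sets and lower in FC than NH by 0.44, 0.37 and 0.33, with a residual SD between arrays of 0.34 to 0.42. NH 100 is among the arrays behind these differences. Their part in the result was not tested. Of the hippocampal marker lists, 5 of 6 neuron markers were higher in CS and in FC than in NH (medians 0.09 and 0.09), and 5 of 6 astrocyte markers were lower in CS (median -0.05). In CS, 5 of 6 oligodendrocyte and 5 of 7 microglia markers were also higher, and 5 of 6 vessel markers lower. Summed intensities, not adjusted for batch, overlapped between arms. Their medians were 6104.7 in NH, 6076.6 in CS and 6032.3 in FC for neuron markers, and 4216.1 in NH and 4248.5 in CS for astrocyte markers. No member of these lists passed.

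Several core factors lay near 0, with differences from NH no larger than 0.10 in either direction and intervals that included 0. Eef1a1, which delivers transfer RNA to the ribosome, differed from NH by 0.02 and -0.00 in hippocampus CS and FC, and by 0.02 and -0.02 in amygdala. The neuronal form Eef1a2 differed by -0.01 and 0.04 in hippocampus and by -0.02 and -0.04 in amygdala. Eif4ebp2, the eIF4E inhibitor of brain, differed by 0.02 and 0.01 in hippocampus and by 0.01 and 0.07 in amygdala. Eif2ak1, the heme-regulated eIF2 kinase, differed by -0.01 and -0.02 in hippocampus and by 0.02 and 0.09 in amygdala. Eif4h, a helper of the helicase, differed by 0.05 and 0.03 in hippocampus and by -0.01 and -0.04 in amygdala. Eif5, which triggers hydrolysis on eIF2, differed by 0.01 and -0.05 in hippocampus and by 0.03 and 0.04 in amygdala. Eif3a, the large eIF3 scaffold subunit, differed by 0.09 and 0.06 in hippocampus and by -0.04 and -0.01 in amygdala.

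The difference between tissues was tested by itself, since signs differed between them. In a joint fit over 7242 probe sets no member was called and no probe set was (0% in each of the 3 comparisons). The fit takes the tissues as independent, which the titles leave in doubt, since some amygdala arrays may hold mice that also gave hippocampus arrays. The amygdala difference exceeded the hippocampus difference by a median of 0.11 over ribosomal protein genes for CS minus NH (22 of 26 genes) and of 0.08 for FC minus NH (20 of 26), and by -0.03 for FC minus CS (9 of 26). For factors the medians were 0.02, 0.01 and 0.00. These gaps were not refitted without the arrays that stood apart. Within amygdala, the ribosomal median of CS minus NH was 0.01 without CS 23139 and CS 21523, the arrays highest in these genes, whose removal could only lower it. Within hippocampus it was 0.06 without NH 100. Rpl13a had the widest gap in FC minus NH, 0.33 ± 0.0936 with a 95% interval from 0.14 to 0.51 (limma, p = 0.00113, adjusted p = 0.981). Eif3k followed at 0.28 ± 0.101 (limma, p = 0.00776, adjusted p = 0.981). Without NH 100, the hippocampal FC minus NH difference was 0.01 for Eif3k and -0.11 for Rpl13a. The tissues appear to have been normalized apart, because the median deposited intensity of an array lay between 76.5 and 80.8 for hippocampus but between 52.3 and 56.1 for amygdala.

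Ribosomal protein transcripts moved together from array to array, whatever the arm. After arm and batch were removed, at least 20 of the 26 genes lay on the same side of 0 in 11 of 26 hippocampus arrays and in 13 of 22 amygdala arrays. Between 4 and 22 genes lay above 0 in a hippocampus array and between 4 and 23 in an amygdala array, while the share of all probe sets above 0 ran from 37.8% to 58.8% and from 42.0% to 64.2%. The array median of the ribosomal protein genes had a residual SD of 0.08 in hippocampus and 0.09 in amygdala, that of the factors 0.05 and 0.04. The ribosomal median of amygdala CS minus NH, 0.10, is of the size of this spread, and the hippocampal medians are smaller. This spread is that of single arrays, and no standard error of a difference between arms was computed for the medians. The genes share every array, so 22 of 26 genes in a direction are not 22 separate observations.

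Differences between batches were larger than those between arms for several members. A moderated F-test called 5 of 26 ribosomal protein genes in hippocampus (25% of all probe sets were called) and 4 of 26 in amygdala (26.2%), and 13 and 12 of the 39 factors. Eif4a2, a helicase subunit abundant in brain, led in hippocampus with batch terms spanning 0.50 (limma, adjusted p = 2.74e-05). Eif1ax, a scanning factor, led in amygdala with 0.45 (limma, adjusted p = 0.00136), followed by Eif4a1 (0.22), Eif2a (0.18) and Eif1a (0.38). Among ribosomal protein genes Rpl37a (0.25), Rps27l (0.28), Rps28 (0.32), Rps4x (0.25) and Rpl7 (0.28) were called in hippocampus and Rps7 (0.35), Rpl13a (0.24), Rpl7 (0.38) and Rps18 (0.27) in amygdala. For all 4 amygdala genes the terms ran from batch 3, the lowest, to batch 1, the highest.

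The 39 probe sets that name a ribosomal protein gene with other genes gave a second view of the family, mostly through the same messenger RNAs with their copies. In amygdala 34 of them were tested, with medians of 0.07 for CS minus NH (29 higher), 0.01 for FC minus NH (21 higher) and -0.06 for FC minus CS (3 higher). In hippocampus 33 were tested, with medians of -0.05 (6 higher), -0.07 (2 higher) and -0.02 (13 higher). None was called. They read the same arrays, including NH 100 and CS 23139, so they are no separate sample.

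Genes around the ribosome were read from lists written with earlier results of these data known, and the gene named for each list is the one with the smallest p in that direction. The mitochondrial ribosome, which is built from nuclear genes of its own, had 47 of 53 genes higher in amygdala CS than NH (median 0.07, Mrpl12 at 0.16) and 41 of 53 higher in FC (median 0.05, Mrpl4 at 0.26). In hippocampus 40 of 50 were lower in CS (median -0.04) and 42 of 50 in FC (median -0.06), with Mrps7 at -0.18 and -0.21. Other genes of TOP messenger RNAs and ribosome-bound proteins were higher in 7 of 7 cases in amygdala CS (median 0.10, the nascent chain factor Btf3 at 0.17) and lower in 6 of 7 in hippocampus FC (median -0.09). No gene of these lists was called in any of the 6 comparisons.

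Further lists cover genes that build or steer the machinery, read from the same arrays and also not refitted. Nucleolar and ribosome assembly genes had a median of 0.06 in amygdala CS minus NH with 23 of 34 higher, and 0.03 in FC minus NH with 23 of 34 higher, with Rrp1b at 0.18. Transfer RNA synthetases had medians of 0.06 (13 of 18 higher) and 0.05 (14 of 18), with Qars at 0.13 and 0.12. Genes of mTOR and S6 kinase signalling had medians of 0.03 (12 of 16) and 0.04 (12 of 16). In hippocampus the same 3 lists had medians between -0.02 and -0.00 in both comparisons with NH, and Ddit4, an inhibitor of mTOR, stood above its list at 0.29 in CS and 0.36 in FC without being called. Genes of termination, recycling and messenger RNA control had medians of 0.03 and -0.00 in amygdala.

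**Figure D5:**
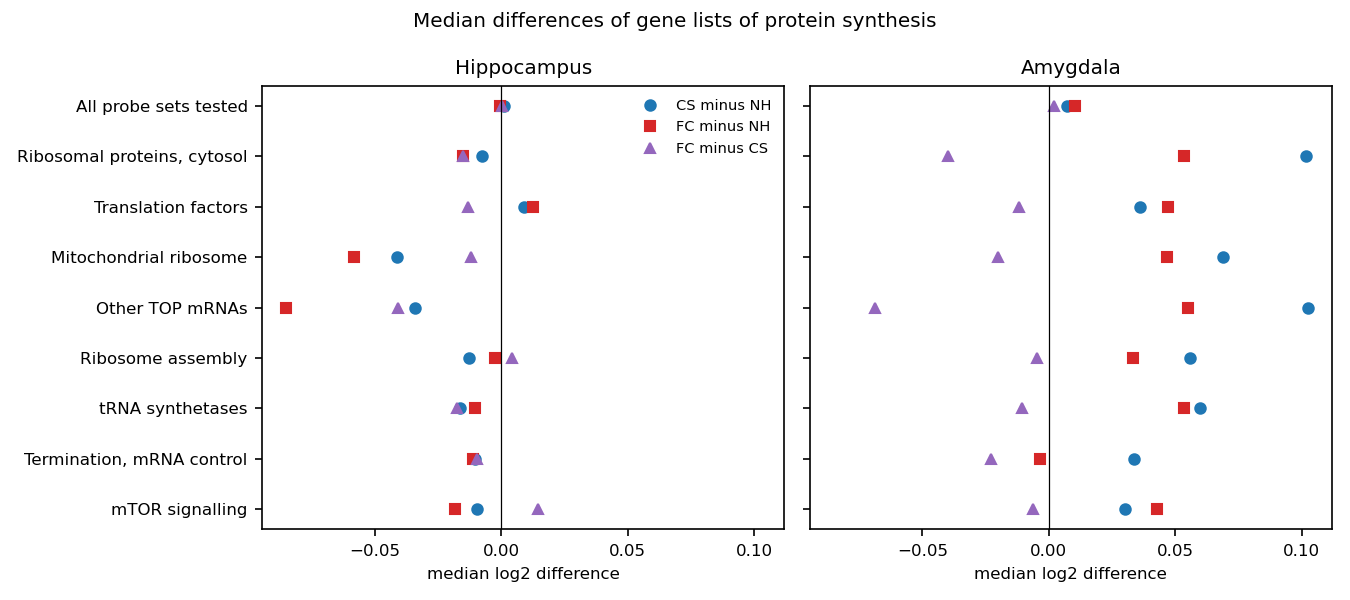
Median log2 difference of each gene list of protein synthesis for CS minus NH (circles), FC minus NH (squares) and FC minus CS (triangles) in hippocampus (left) and amygdala (right). In amygdala CS minus NH the cytosolic ribosomal proteins and the other TOP messenger RNAs reach 0.10 and the mitochondrial ribosome 0.07, against 0.01 for all probe sets. All lists share the same arrays, and without CS 23139 and CS 21523 the cytosolic ribosomal median is 0.01.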

How the data were processed

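Transcript levels were read on 48 Affymetrix arrays of mouse hippocampus and amygdala. The authors deposited 1 linear intensity per probe set and array, made with RMA per the submitters' processing notes, whose version and settings no source used here states. RMA equalises arrays, so a shift shared by most transcripts cannot be seen. The deposited intensity was turned into log2 with nothing added. Within each tissue the 40% dimmest probe sets, by mean over all arrays, were left out, and limma 3.58.1 in R 4.3.3 fitted arm and processing batch over the other 7453, with Benjamini-Hochberg adjustment. A joint fit over 7242 probe sets tested the tissue difference, and the fits were tested on simulated data. The number of arrays limits the precision. The alternatives were another filter, offset, probe set or batch handling, array weights, leaving out each array and, chosen after seeing the data, leaving out the CS arrays 21523 and 23139 together.

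Named were, in each comparison, every called member, and the 3 higher and 3 lower genes of each kind with the smallest p. A fixed list of well known members was added, with the 5 of each kind with the smallest p between batches and the leading genes of each companion list. Eif2b2 and Eif3b in amygdala FC minus NH were named after their values were seen, because their arms did not overlap. Members, lists and rules were chosen with earlier results of these data known.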

Additional observations from a re-analysis of the deposited data

Results flagged for a closer look

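Of 72 groups of 4 to 10 arrays tested for a single array far from the others, 3 held one, where chance gives about 1 in 20. All 3 were hippocampal NH arrays of batch 4. Rps28 reached 12.37 in NH 100, where the next highest NH array read 12.01. Eif4b was at 8.511 in NH 100, where the next lowest read 8.822. Rpl10a was at 9.30 in NH 111, where the next lowest read 9.652. Both arrays belong to the 4 on which hippocampal differences from NH rest.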

How the results depend on the processing

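Of the medians and counts recomputed under other settings, 369 stayed within 1.5 times the count or within the spread between arrays, and 9 moved. That spread exceeds most of the medians, so a median could change sign and still be counted as staying. The reported counts of calls between arms were 0 and could move only where a setting called a member. Leaving out the CS arrays 21523 and 23139 together, chosen after seeing the data, moved the ribosomal protein median of amygdala CS minus NH to 0.014. These arrays had the highest medians of those genes in amygdala, so the direction of this move was fixed in advance. Hippocampal medians near 0 changed sign with the setting. Single batches moved the medians of ribosomal protein genes to -0.13 (hippocampus FC minus NH, batch 4) and 0.053 (amygdala FC minus CS, batch 3), and those of factors to 0.063 (hippocampus FC minus NH, batch 6), 0.042 (hippocampus FC minus CS, batch 6) and 0.048 (amygdala FC minus CS, batch 3). Without the batch of NH arrays only, 2 of 26 ribosomal protein genes were called between amygdala batches, against 4 in the reported fit (26.2% of all probe sets). The share of all probe sets under that setting was not computed. Array weights called 4 ribosomal protein genes and 5 factors in amygdala FC minus NH. In that comparison all probe sets called, amygdala FC minus NH, numbered 7 in the reported fit, 911 with array weights and 211 with no batch term, where 0 members were called. Of the recomputed values of single named genes, 6316 stayed, 425 moved and 9 became calls, all 9 under array weights in amygdala FC minus NH. The cause was not tested, except that a single batch holds fewer arrays. With each array left out in turn, limma called 0 members in all 6 comparisons. Ribosomal protein medians then ran from -0.04 to 0.06, -0.06 to 0.03 and -0.04 to 0.00 in hippocampus (CS minus NH, FC minus NH, FC minus CS) and from 0.05 to 0.12, 0.03 to 0.09 and -0.06 to 0.00 in amygdala. Factor medians ran from -0.01 to 0.03, -0.01 to 0.03 and -0.02 to 0.01 in hippocampus and from 0.02 to 0.06, 0.03 to 0.06 and -0.02 to 0.03 in amygdala. No paired analysis was possible because the arms of a tissue share no replicate number.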
